A study of Mus musculus with 10 samples.

Results

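Stellate cell and matrix genes were followed in livers of C57BL/6 mice aged 24 weeks. The set holds 44 genes: 16 collagen genes, 16 other genes of the matrix, its crosslinking and its turnover, and 12 genes that mark quiescent or activated stellate cells and related mesenchymal cells. They were chosen by symbol and function, with earlier results of these data known. Each gene was found once among the 53392 genes of the deposited table. The filter on low counts kept 43 of them among the 15392 genes tested, and Lox, an enzyme that crosslinks collagen, did not pass it. Livers carrying the deletion of Fbp1 (Fbp1-deleted, 5 livers, replicates 6 to 10) were set against wild-type livers (WT, 5 livers, replicates 1 to 5) of the same strain and age. Fbp1 is the gene of fructose bisphosphatase, which gluconeogenesis needs, and the labels call the mutant mice hepatic FBP1-deficient. How the deletion was made, and which promoter drove any recombinase, is not given in the sources used here. The livers were frozen as tissue, the strand was not kept in the mRNA libraries, and the series' design text calls the 5 livers of a group biological replicates.

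Hepatic stellate cells lie between hepatocytes and the endothelium of the sinusoids, store vitamin A in their resting state, and are the main source of fibrous matrix when the liver is injured. On activation they lose their retinoid droplets, gain smooth muscle actin and the receptor for platelet-derived growth factor, and secrete fibrillar collagens under the influence of transforming growth factor beta. Fibrillar collagens form the scar, network-forming and fibril-associated collagens shape basement membranes and fibre surfaces, lysyl oxidases crosslink the fibres, and metalloproteinases and their inhibitors set the rate of breakdown.

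Libraries held between 17778395 and 23894812 estimated counts. Fbp1 itself was at 7.38 to 13.4 counts-per-million (CPM) in Fbp1-deleted livers and at 778 to 1050 CPM in WT livers, so each library fitted its label. Over all genes tested, 10.6% were higher and 10% were lower in Fbp1-deleted livers (edgeR's quasi-likelihood F test, with a threshold of 0.05 on p adjusted by Benjamini-Hochberg), with a median log2 change of 0.01. Upper quartile scaling put these shares at 8.23% higher and 12.2% lower, and library totals alone at 7.73% higher and 12.8% lower. Each change given is the fitted log2 ratio of Fbp1-deleted over WT livers, beside its standard error (SE), and CPM uses library sizes scaled by edgeR's TMM factors. Hepatocyte markers summed to between 101719.2 and 121995.4 CPM in Fbp1-deleted livers and between 83158.1 and 125649.2 CPM in WT livers. In tissue RNA of this kind, fewer cells of a type and less RNA per cell cannot be told apart. Fbp1-deleted replicate 8 stood apart for these genes: it held the highest of the 10 values for 15 of the 43 members tested (34.9%), and for 9.15% of all genes tested. WT replicate 2 held the lowest value for 14 members (32.6%, and 7.06% of all genes tested). Values without replicate 8 are given beside the results that it moves most.

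Of the 43 members tested, 8 were higher in Fbp1-deleted livers (18.6%) and 1 was lower (2.33%), and 34 did not pass the test. The background was 10.6% and 10%. Because the members were chosen with earlier results of these data known, these shares are descriptive and do not test the set as a whole. The 8 were the collagen genes Col5a3, Col12a1 and Col14a1, the matricellular gene Postn, the proteoglycan genes Lum and Dcn, the surface protein gene Thy1 and the growth factor gene Hgf, with fold differences between 1.33 and 2.33. The gene that fell was the collagen gene Col9a3. The genes for the main fibrillar collagens, Col1a1, Col1a2 and Col3a1, and the activation marker Acta2 did not pass. The median change over the 43 members was 0.10. Without replicate 8, 7 members were higher and 4 were lower, against 13.1% and 11.8% of all genes tested in that fit; the 4 lower were Col9a3, Ngfr, Sparc and Mmp14. With upper quartile scaling 4 members were higher and 4 were lower, against 8.23% and 12.2% of all genes tested. With library totals 4 were higher and 3 were lower, against 7.73% and 12.8%. In both scalings Col14a1, Dcn, Lum and Thy1 no longer passed, while Mmp14 and Ngfr passed as lower. Upper quartile scaling also called Col5a2 lower. The groups did not overlap for 3 members that were higher, Col12a1, Postn and Thy1, against 6.57% of all genes tested, and for Col9a3 among those lower, against 6.89%.

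**Figure D1:**
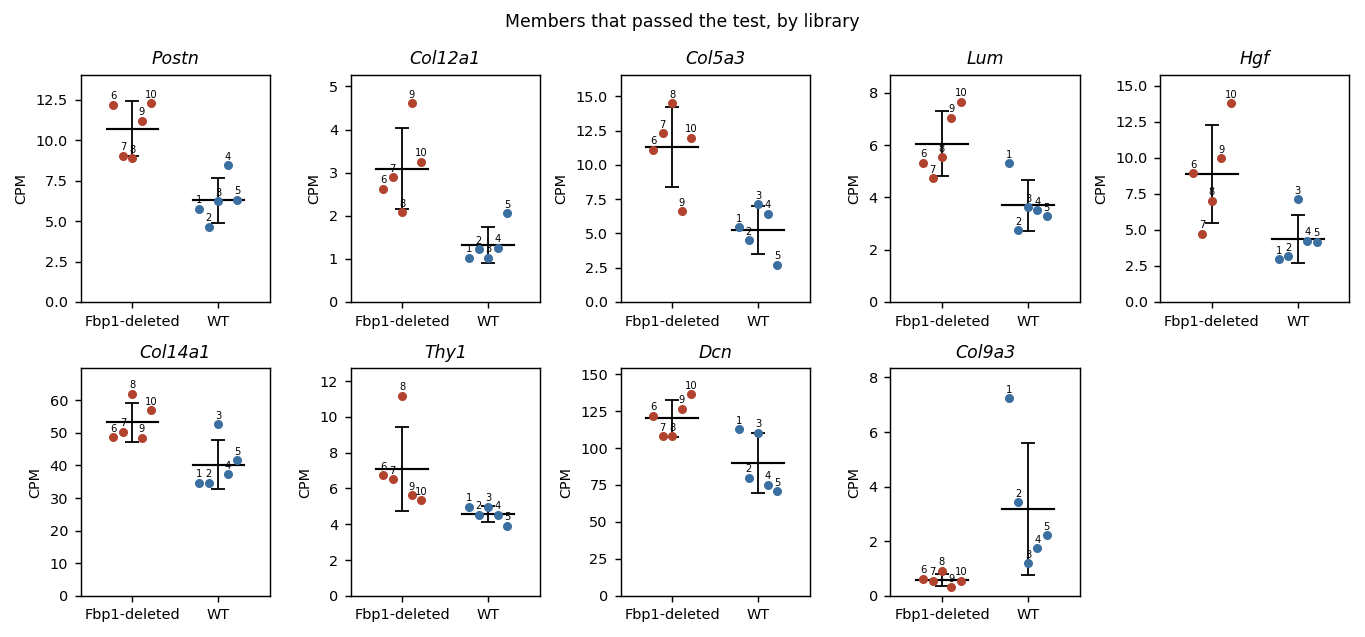
Counts-per-million of the 9 members that passed the test, 1 panel each, with Fbp1-deleted livers on the left and WT livers on the right. Dots are single livers labelled by replicate number, bars are means and whiskers are SD (n = 5 per group); Postn, Col12a1, Thy1 and Col9a3 show no overlap between the groups, and the other 5 overlap by at least 1 liver.

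Promoter sequence was at hand for 28 of the 44 members and for 3 of the 9 that passed, Postn, Col5a3 and Hgf. The 250 bases upstream of each start site are shown, 5′ to 3′ on the gene's strand, because these genes share a direction of change (RefSeq, GRCm38.p6). Capitals mark the letters of 6 motifs that were searched, and positions are counted back from the start site. The windows are chr3:54360857-54361106 on the plus strand for Postn, chr9:20815068-20815317 on the minus strand for Col5a3 and chr5:16553245-16553494 on the plus strand for Hgf.
Postn: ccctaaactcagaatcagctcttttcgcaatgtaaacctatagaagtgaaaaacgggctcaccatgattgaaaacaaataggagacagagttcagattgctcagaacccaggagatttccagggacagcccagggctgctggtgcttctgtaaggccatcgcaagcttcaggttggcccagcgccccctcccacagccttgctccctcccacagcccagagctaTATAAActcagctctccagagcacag
Col5a3: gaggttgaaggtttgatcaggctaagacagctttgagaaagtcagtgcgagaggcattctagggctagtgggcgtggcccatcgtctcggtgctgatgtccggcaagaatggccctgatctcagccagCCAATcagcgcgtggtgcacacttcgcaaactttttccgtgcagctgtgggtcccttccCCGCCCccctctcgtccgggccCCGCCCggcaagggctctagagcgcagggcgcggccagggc
Hgf: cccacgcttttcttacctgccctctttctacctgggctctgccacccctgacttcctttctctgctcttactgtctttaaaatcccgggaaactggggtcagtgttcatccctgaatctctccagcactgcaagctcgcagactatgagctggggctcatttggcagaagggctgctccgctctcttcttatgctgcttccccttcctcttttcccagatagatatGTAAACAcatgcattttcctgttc
The windows had different matches. Postn held a TATA box (TATAAA, searched on the gene's strand only) at position -26, a match found in 7.59% of 32851 promoter windows of the same length. Col5a3 held GC boxes (GGGCGG, here as its reverse complement CCGCCC) at -63 and -41, found in 32.7% of windows, and a CCAAT box (CCAAT) at -122, found in 33.8%. Hgf held the forkhead letters GTAAACA at -24, found in 3.17%. The AP-1 letters TGANTCA, present in 6.75% of windows, and the SMAD palindrome GTCTAGAC, present in 0.167%, had 0 matches in the 3 windows. All motifs but the TATA box were searched on both strands, and no matches overlapped. GC content was 52.0% for Postn, 62.8% for Col5a3 and 50.8% for Hgf, where the median window has 52.4%.

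Periostin, encoded by Postn, is a matricellular protein that binds collagen and integrins and is secreted by activated fibroblasts. The gene (ENSMUSG00000027750.16) lies on chromosome 3, plus strand, at 54361109 to 54391037 in GRCm38. Its level was 12.2, 9.03, 8.87, 11.2 and 12.3 CPM in Fbp1-deleted replicates 6 to 10, and 5.76, 4.66, 6.23, 8.47 and 6.33 CPM in WT replicates 1 to 5. Every Fbp1-deleted liver lay above every WT liver, with the smallest gap between Fbp1-deleted replicate 8 and WT replicate 4. The mean was 10.7 ± 1.68 CPM in Fbp1-deleted livers and 6.29 ± 1.39 CPM in WT livers (SD, n = 5 each), a change of 0.77 (SE 0.17, adjusted p = 0.00657, edgeR). Postn passed in each of the 10 fits that left out 1 liver, with a largest adjusted p of 0.0227.

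Type V collagen sits in the core of type I fibrils and limits their width, and Col5a3 encodes one of its chains. Col5a3 (ENSMUSG00000004098.7) lies on chromosome 9, minus strand, at 20770050 to 20815067. It was at 11.1, 12.3, 14.5, 6.61 and 12.0 CPM in Fbp1-deleted livers, against 5.46, 4.49, 7.15, 6.45 and 2.73 CPM in WT livers. In 4 Fbp1-deleted livers it exceeded the highest WT liver, while Fbp1-deleted replicate 9 lay inside the WT range. The change was 1.11 (SE 0.25, adjusted p = 0.00865, edgeR), or 2.16-fold higher, and it passed without each liver in turn (largest adjusted p 0.0282).

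The genes for the other chains of type V collagen, Col5a1 and Col5a2, did not pass. Col5a1 averaged 9.16 ± 1.43 CPM in Fbp1-deleted livers and 8.68 ± 1.90 CPM in WT livers (SD, n = 5 each), a change of 0.08 (SE 0.17, adjusted p = 0.771, edgeR). Col5a2 was at 2.59, 2.17, 3.68, 4.01 and 2.09 CPM in Fbp1-deleted livers and at 4.62, 5.03, 2.06, 15.8 and 17.6 CPM in WT livers. The WT livers spread widely: replicates 4 and 5 were far above the other 3, and replicate 3 was below all Fbp1-deleted livers. The change of Col5a2 was -1.63 (SE 0.56) and did not pass (adjusted p = 0.0645, edgeR), while DESeq2 placed it past the threshold (adjusted p = 0.0231). It passed in 4 of the 20 alternatives, upper quartile scaling among them (adjusted p = 0.0495, edgeR). Col3a1 lies 24.6 kb from Col5a2 on chromosome 1, on the opposite strand.

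Col1a1 and Col1a2 encode the chains of type I collagen, the chief collagen of scar, and Col3a1 that of type III. Col1a1 was at 4.55, 9.31, 37.2, 5.46 and 6.83 CPM in Fbp1-deleted livers, against 3.69, 3.64, 5.74, 5.63 and 6.27 CPM in WT livers. Replicate 8 alone reached 37.2 CPM, replicates 6 and 9 lay inside the WT range, and replicates 7 and 10 lay above it. The change was 1.35 (SE 0.60, adjusted p = 0.141, edgeR), and 0.39 without replicate 8 (adjusted p = 0.25). Col1a2 was at 9.87, 14.7, 29.7, 12.0 and 12.7 CPM in Fbp1-deleted livers and at 9.99, 7.72, 12.9, 11.4 and 9.77 CPM in WT livers, and replicate 8 was again highest. Its change was 0.61 (SE 0.28, adjusted p = 0.139, edgeR), and 0.25 without that liver (adjusted p = 0.291). Col3a1 was at 7.52, 8.64, 21.1, 6.80 and 7.72 CPM in Fbp1-deleted livers and at 7.92, 7.03, 14.7, 11.3 and 10.4 CPM in WT livers. Its fitted change was 0.02 (SE 0.33, adjusted p = 0.976, edgeR) with replicate 8 and -0.42 without it (adjusted p = 0.145).

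**Figure D2:**
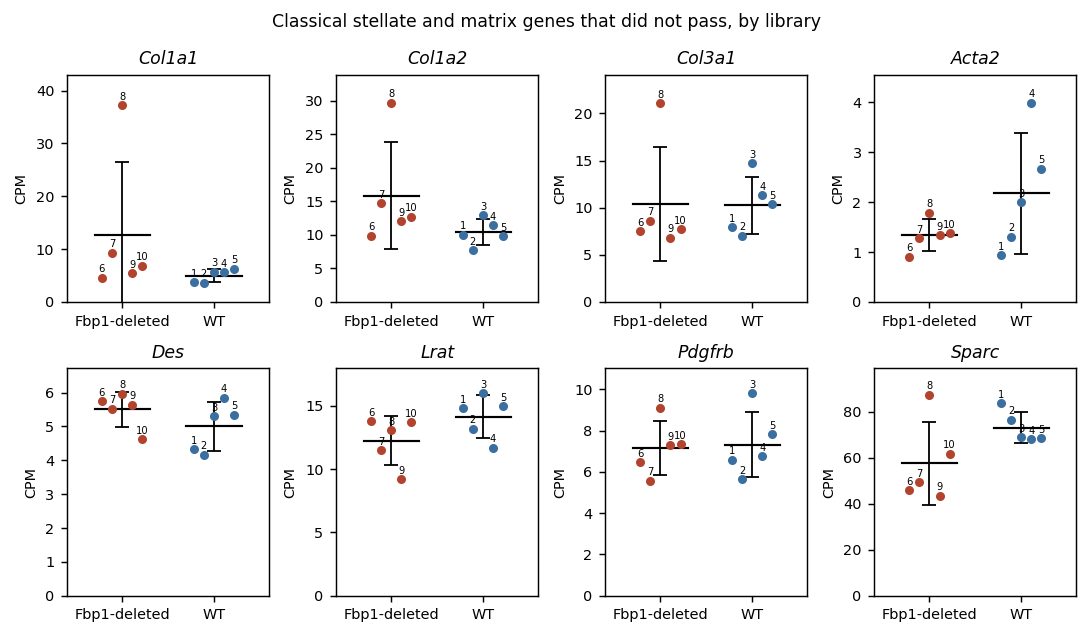
Counts-per-million of the fibrillar collagen genes Col1a1, Col1a2 and Col3a1 and of Acta2, Des, Lrat, Pdgfrb and Sparc, with Fbp1-deleted livers on the left and WT livers on the right of each panel. Dots are livers labelled by replicate number, bars are means and whiskers are SD (n = 5 per group, lower whiskers end at 0). Fbp1-deleted replicate 8 is the highest point for the 3 collagen genes, for Sparc and, narrowly, for Des. None of the 8 genes passed the test.

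Summed over the 6 fibrillar collagen genes, the level was 44.9, 56.1, 117.6, 43.1 and 49.2 CPM in Fbp1-deleted livers and 39.6, 35.9, 54.2, 57.3 and 56.1 CPM in WT livers. Without replicate 8 the Fbp1-deleted livers lay wholly inside the WT range. Per length of exons, Col1a1 stood to Col1a2 at 2.37 in replicate 8, between 0.865 and 1.2 in the other Fbp1-deleted livers, and between 0.700 and 1.22 in WT livers. The 12 markers of portal fibroblasts and mesothelium, other cells that can make these collagens, summed to 55.5 CPM in replicate 8, to between 19.5 and 33.3 CPM in the other Fbp1-deleted livers and to between 43.7 and 72.2 CPM in WT livers. Of their 9 members tested, 0 were higher and 1 was lower (edgeR), against 10.6% and 10% of all genes tested. At an unadjusted p under 0.05 there were 4, and none of the 12 was at 0 in all libraries. Their part in the collagen levels was not tested. Of the 6 fibrillar collagen genes 1 was higher (16.7%) and 0 were lower, beside 10.6% and 10% of all genes tested. Their median change was 0.34. An unadjusted p under 0.05 (edgeR) was held by 4 of them, a level at which the share of all genes was not counted.

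Fibril-associated collagens with interrupted helices decorate the surface of fibrils. All 3 of those in the set passed the test, 2 higher and 1 lower, against 10.6% and 10% of all genes tested. Outside the set, Col20a1 of the same type was higher, while Col16a1 did not pass (change 0.14, SE 0.19, adjusted p = 0.633, edgeR). Col12a1 (ENSMUSG00000032332.17, chromosome 9, minus strand, 79598991 to 79718831) was at 2.63, 2.90, 2.08, 4.61 and 3.25 CPM in Fbp1-deleted livers, against 1.03, 1.23, 1.03, 1.26 and 2.06 CPM in WT livers. The groups did not overlap, though WT replicate 5 came within 0.02 CPM of Fbp1-deleted replicate 8. The change was 1.22 (SE 0.28, adjusted p = 0.00798, edgeR), or 2.33-fold higher, on 43 to 76 counts per Fbp1-deleted library and 19 to 40 per WT library. It passed without each liver in turn (largest adjusted p 0.0258). Col14a1 (ENSMUSG00000022371.16, chromosome 15, plus strand, 55307750 to 55520803) was at 48.6, 50.4, 62.0, 48.5 and 57 CPM in Fbp1-deleted livers and at 34.7, 34.7, 52.6, 37.3 and 41.6 CPM in WT livers. WT replicate 3 alone reached into the Fbp1-deleted range. The change of 0.41 (SE 0.13, adjusted p = 0.0367, edgeR) passed in 1 of the 10 fits without 1 liver, that without WT replicate 3, with adjusted p between 0.00828 and 0.0977 over the 10. Without replicate 8 it was 0.35 (adjusted p = 0.0645).

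Col9a3 encodes a chain of type IX collagen, a fibril-associated collagen best known from cartilage, and was the only member called lower. It lies on chromosome 2, plus strand, at 180597790 to 180622189 (ENSMUSG00000027570.15). It was at 0.623, 0.557, 0.921, 0.303 and 0.551 CPM in Fbp1-deleted livers, against 7.23, 3.43, 1.19, 1.75 and 2.21 CPM in WT livers. The groups did not overlap, and the WT livers differed widely among themselves. The change was -2.40 (SE 0.48, adjusted p = 0.00416, edgeR), or 5.27-fold lower, and -1.84 without WT replicate 1. It passed in all 20 alternative fits. The counts behind it were few, 5 to 19 per Fbp1-deleted library and 22 to 147 per WT library. The genes for the partner chains were barely counted, with 8 counts for Col9a1 and 1 for Col9a2 over all 10 libraries. Tcfl5, a protein-coding gene on the opposite strand, shares 6.073% of the exon bases of Col9a3 and held 6 counts in all.

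Collagens of basement membranes and microfibrils showed no call. Col4a1 and Col4a2, which encode the chains of the type IV network, are transcribed away from each other on chromosome 8. Their first exons overlap by 22 bases in the annotation, the stretch shown here because the pair is so closely joined (RefSeq, GRCm38.p6, chr8:11312805-11312826, plus strand), and they were singled out after their values were seen.
Col4a1 and Col4a2 shared bases: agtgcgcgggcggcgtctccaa
Col4a1 was at 21.6, 20.8, 25, 25.1 and 23.8 CPM in Fbp1-deleted livers and at 17.0, 17.6, 23.8, 24.2 and 27.5 CPM in WT livers, a change of 0.08 (SE 0.14, adjusted p = 0.718, edgeR). Col4a2 had a change of -0.11 (SE 0.17, adjusted p = 0.672). Both ranges overlapped throughout. Col18a1, whose protein releases endostatin and which hepatocytes also express, ranged from 863.8 to 1223.7 CPM in Fbp1-deleted livers and from 827.6 to 1350.0 CPM in WT livers (change -0.20, SE 0.14, adjusted p = 0.359). Col15a1, its relative in the multiplexin class, had a change of 0.30 (SE 0.36). The genes for the 3 chains of collagen VI, which form beaded filaments around cells, had changes between 0.01 and 0.13, and adjusted p was at least 0.613 (edgeR). Over these 7 genes the lowest unadjusted p was 0.191.

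Among the small leucine-rich proteoglycans, which bind collagen fibrils and control their spacing, decorin and lumican transcripts were higher. Dcn was at 122.0, 107.8, 108.0, 126.5 and 136.6 CPM in Fbp1-deleted livers, against 112.9, 79.8, 110.3, 75.3 and 70.9 CPM in WT livers. WT replicates 1 and 3 lay inside the Fbp1-deleted range. The change of Dcn was 0.42 (SE 0.14, adjusted p = 0.0491, edgeR), or 1.34-fold higher, at the edge of the threshold. It passed without WT replicate 1, WT replicate 3 or Fbp1-deleted replicate 8 and in none of the other 7 such fits (adjusted p between 0.0237 and 0.13 over the 10). Lum was at 5.32, 4.74, 5.53, 7.04 and 7.66 CPM in Fbp1-deleted livers and at 5.31, 2.74, 3.63, 3.50 and 3.29 CPM in WT livers. WT replicate 1 was the one WT liver to reach the Fbp1-deleted range, as it was highest among WT livers for Dcn. The change of Lum was 0.71 (SE 0.20, adjusted p = 0.0249, edgeR), or 1.64-fold higher. It no longer passed without Fbp1-deleted replicate 9 or 10 or without WT replicate 2 or 5 (adjusted p between 0.00932 and 0.0672 over the 10 fits). Lum (ENSMUSG00000036446.5, 97565128 to 97572703) and Dcn (ENSMUSG00000019929.16, 97479609 to 97518143) lie 47.0 kb apart on the plus strand of chromosome 10. Biglycan, the product of Bgn, averaged 73.3 ± 2.84 CPM as transcript in Fbp1-deleted livers and 75.1 ± 17.3 CPM in WT livers (SD, n = 5 each; change -0.03, SE 0.14).

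The other matrix glycoproteins had no call beside Postn. Fn1, which encodes fibronectin and which hepatocytes secrete into plasma, ranged from 1493.1 to 1827.5 CPM in Fbp1-deleted livers and from 908.1 to 2030.2 CPM in WT livers (change 0.09, SE 0.18). Ecm1, which encodes an extracellular matrix protein known to bind latent transforming growth factor beta in mouse liver, averaged 238.4 ± 23.9 CPM in Fbp1-deleted livers and 216.2 ± 17.3 CPM in WT livers (SD, n = 5 each; change 0.14, SE 0.10). Sparc, which encodes a collagen-binding glycoprotein, was at 46.0, 49.5, 87.6, 43.5 and 61.9 CPM in Fbp1-deleted livers and at 83.9, 76.6, 69.0, 68.1 and 68.6 CPM in WT livers. All Fbp1-deleted livers but replicate 8 were below the lowest WT liver. The change was -0.34 (SE 0.17, adjusted p = 0.174, edgeR) with all livers and -0.54 without replicate 8 (adjusted p = 0.00514). The elastic fibre genes Fbn1 and Eln had changes of 0.25 (SE 0.26) and -0.44 (SE 0.44), and WT replicate 4 held 6.23 CPM of Eln where no other liver exceeded 2.81 CPM.

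Crosslinking and turnover genes did not pass in either direction. Lox held 0, 6, 25, 3 and 7 counts in Fbp1-deleted libraries and 6, 6, 4, 13 and 13 counts in WT libraries, and most of its Fbp1-deleted counts came from replicate 8. Loxl1 and Loxl2 had changes of -0.34 (SE 0.37) and 0.12 (SE 0.30). Mmp14, a membrane-bound collagenase that also activates the gelatinase encoded by Mmp2, averaged 37.7 ± 6.76 CPM in Fbp1-deleted livers and 49.1 ± 8.87 CPM in WT livers (SD, n = 5 each). Its change of -0.38 (SE 0.15) had an adjusted p of 0.0813 (edgeR), and without replicate 8 it was -0.46 (adjusted p = 0.0374). Mmp14 also passed with upper quartile scaling (adjusted p = 0.0397, edgeR) and with library totals (adjusted p = 0.0389). Mmp2 and the inhibitors Timp2 and Timp3 had changes between -0.01 and 0.19, with adjusted p of at least 0.516.

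**Figure D3:**
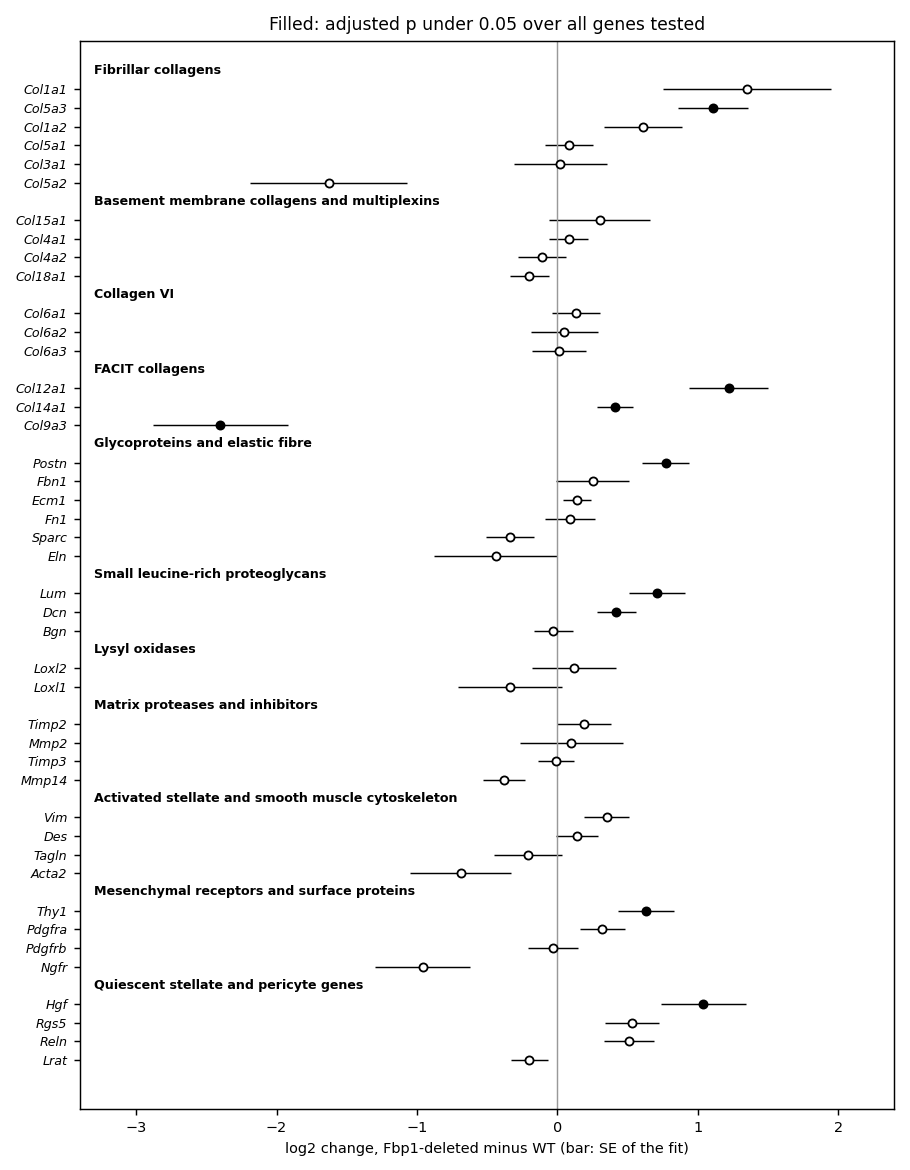
Log2 change (Fbp1-deleted minus WT) of the 43 members tested, grouped into 11 classes by role, with the SE of the edgeR fit as bars. Filled dots have an adjusted p under 0.05; the 3 fibril-associated collagens and 2 of the 3 small leucine-rich proteoglycans are filled, and no dot of the basement membrane, collagen VI, lysyl oxidase, protease or cytoskeletal classes is.

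The cytoskeletal genes by which activated stellate cells are recognised did not pass. Acta2, which encodes smooth muscle actin, was at 0.91, 1.28, 1.79, 1.34 and 1.38 CPM in Fbp1-deleted livers, against 0.935, 1.31, 2.0, 3.99 and 2.67 CPM in WT livers. All 5 Fbp1-deleted livers lay below the highest 3 WT livers. The change was -0.69 (SE 0.36, adjusted p = 0.196, edgeR) and -0.36 without WT replicate 4. Tagln, which encodes the actin-binding protein transgelin, had a change of -0.21 (SE 0.24), and -0.50 without replicate 8 (adjusted p = 0.0608), but 62.425% of its exon bases are shared with the antisense gene Gm48529, so its counts in a library without strand are uncertain. Des, the gene for the muscle filament desmin and a marker of rodent stellate cells, was at 5.75, 5.52, 5.96, 5.64 and 4.63 CPM in Fbp1-deleted livers and at 4.33, 4.17, 5.31, 5.85 and 5.35 CPM in WT livers. The ranges overlapped, and its fitted change was 0.14 (SE 0.15, adjusted p = 0.554, edgeR). Vim, the gene for the mesenchymal filament vimentin, had a change of 0.35 (SE 0.16, adjusted p = 0.126), and 0.20 without replicate 8. The 10 markers of vascular smooth muscle, cells that share these filaments, had 6 genes tested and 0 called, against 20.6% of all genes. At an unadjusted p under 0.05 (edgeR) there was 1. Their sums were 273.8 to 283.9 CPM in Fbp1-deleted livers and 248.0 to 296.2 CPM in WT livers.

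Of 4 genes of receptors and surface proteins 1 was higher and 0 were lower, against 10.6% and 10% of all genes tested. Pdgfrb, the gene for the receptor through which platelet-derived growth factor drives stellate cell growth, was at 6.47, 5.57, 9.11, 7.28 and 7.33 CPM in Fbp1-deleted livers and at 6.59, 5.64, 9.80, 6.77 and 7.82 CPM in WT livers. The groups covered the same range, and its fitted change was -0.03 (SE 0.18, adjusted p = 0.921, edgeR). Pdgfra had a change of 0.32 (SE 0.16, adjusted p = 0.179). Ngfr, which encodes the low-affinity receptor for nerve growth factor and appears on activated stellate cells, was at 1.2, 1.23, 3.25, 1.34 and 1.65 CPM in Fbp1-deleted livers and at 2.02, 2.82, 4.06, 2.57 and 5.55 CPM in WT livers. Replicate 8 alone kept the Fbp1-deleted livers from lying wholly below WT. The change was -0.96 (SE 0.34, adjusted p = 0.0601, edgeR) with all livers and -1.33 without replicate 8 (adjusted p = 0.00675). Ngfr passed in 6 of the 20 alternatives, among them upper quartile scaling (adjusted p = 0.0497, edgeR) and library totals (adjusted p = 0.0488).

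Thy1, which encodes a surface glycoprotein of fibroblasts and, in mice, of T cells, was higher. The gene (ENSMUSG00000032011.5) lies on chromosome 9, plus strand, at 44043384 to 44048579. It was at 6.75, 6.52, 11.2, 5.64 and 5.35 CPM in Fbp1-deleted livers, against 4.97, 4.54, 4.98, 4.53 and 3.91 CPM in WT livers. The groups did not overlap, and replicate 8 was highest. The change was 0.63 (SE 0.20, adjusted p = 0.0389, edgeR), or 1.55-fold higher, and 0.41 without replicate 8 (adjusted p = 0.071). Over the 10 fits without 1 liver adjusted p was between 0.031 and 0.0962, and it passed only without Fbp1-deleted replicate 9 or 10. The T cell genes Cd3e and Cd3d had changes of -0.53 (SE 0.42, adjusted p = 0.394) and 0.18 (SE 0.24, adjusted p = 0.643). The T cell gene Cd8a failed the filter, at 0.144 to 0.546 CPM in Fbp1-deleted livers and 0.328 to 1.18 CPM in WT livers. The 14 markers of leukocytes other than Kupffer cells summed to 43.4 to 81.7 CPM in Fbp1-deleted and 85.8 to 116.0 CPM in WT livers. Of 12 tested, 0 were higher and 4 were lower, against 10.6% and 10% of all genes tested. Their part in the level of Thy1 was not tested.

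Among 4 genes of resting stellate cells and pericytes 1 was higher and 0 were lower, against 10.6% and 10% of all genes tested. Hgf, whose promoter window holds the forkhead letters, encodes hepatocyte growth factor, which stellate cells secrete and hepatocytes receive. The gene (ENSMUSG00000028864.7) lies on chromosome 5, plus strand, at 16553495 to 16620152. It was at 8.96, 4.74, 7.03, 10 and 13.8 CPM in Fbp1-deleted livers, against 2.95, 3.19, 7.15, 4.26 and 4.17 CPM in WT livers. WT replicate 3 exceeded Fbp1-deleted replicates 7 and 8, and the other WT livers were below all Fbp1-deleted livers. The change was 1.04 (SE 0.30, adjusted p = 0.0263, edgeR), or 2.05-fold higher. It did not pass without Fbp1-deleted replicate 6, 9 or 10 or without WT replicate 1, 2 or 5 (adjusted p between 0.0074 and 0.0696 over the 10 fits). Met, the gene of its receptor, averaged 48.9 ± 10.6 CPM in Fbp1-deleted livers and 67.6 ± 17.6 CPM in WT livers (SD, n = 5 each), a change of -0.46 (SE 0.19, adjusted p = 0.0998).

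Lrat, the enzyme gene by which stellate cells esterify retinol for storage, was at 13.8, 11.5, 13.1, 9.22 and 13.7 CPM in Fbp1-deleted livers and at 14.8, 13.2, 16, 11.7 and 15 CPM in WT livers. The ranges overlapped, and its fitted change was -0.20 (SE 0.13, adjusted p = 0.312, edgeR). Reln, which encodes the secreted glycoprotein reelin and marks stellate cells in the liver, averaged 63.2 ± 12.7 CPM in Fbp1-deleted livers and 44.3 ± 11.0 CPM in WT livers (SD, n = 5 each). Rgs5, a pericyte gene that damps signalling through G proteins, averaged 33.0 ± 10.6 CPM in Fbp1-deleted livers and 22.9 ± 2.92 CPM in WT livers (SD, n = 5 each). Both fell short of the threshold, with changes of 0.51 (SE 0.18, adjusted p = 0.0567) for Reln and 0.53 (SE 0.19, adjusted p = 0.0687) for Rgs5, and DESeq2 called both higher. Rgs5 passed in 1 of the 10 fits without 1 liver, at 0.65 without replicate 8 (adjusted p = 0.0109), and Reln in 2 of the 10, at up to 0.65 without WT replicate 3 (adjusted p = 0.0185).

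The heat map of members by liver shows which livers were high for which genes. Fbp1-deleted replicate 8 held the highest values for 15 members, among them Col1a1, Col1a2, Col3a1, the 3 collagen VI genes, Sparc, Mmp2, Timp2, Tagln, Des, Vim and Thy1. Fbp1-deleted replicate 10 held the highest for 8, namely Fbn1, Postn, Lum, Dcn, Timp3, Pdgfra, Reln and Hgf. Postn, Col12a1, Lum, Dcn and Hgf, all called higher, were therefore not highest in the liver with the most fibrillar collagen transcript, while Col5a3, Col14a1 and Thy1 were. Col5a3 is itself among the fibrillar collagen genes that were summed.

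**Figure D4:**
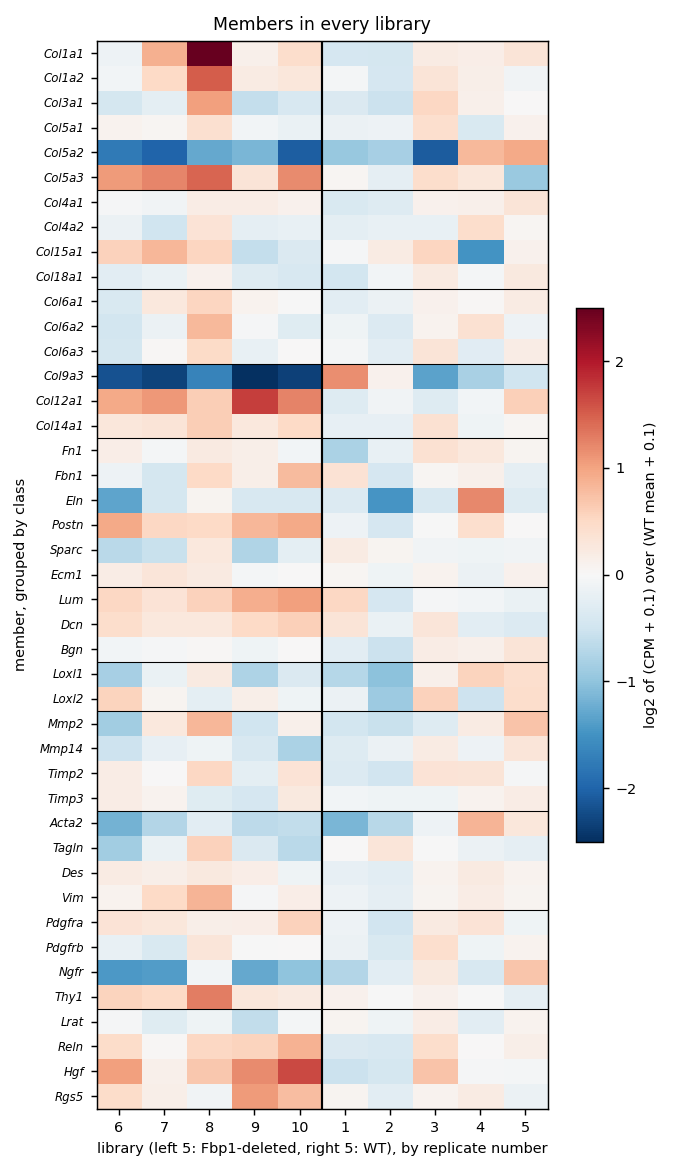
Heat map of the 43 members tested (rows, by class) in the 10 livers (columns, Fbp1-deleted replicates 6 to 10 left of WT replicates 1 to 5). Colour is the log2 ratio of CPM + 0.1 in a liver over the WT mean + 0.1; replicate 8 stands out in the fibrillar collagen and collagen VI rows, and the row of Col9a3 separates the groups.

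Set side by side per kilobase of exons, levels spanned a wide range. Fn1 averaged 142.4 ± 13.0 CPM per kb in Fbp1-deleted livers and 134.0 ± 38.0 CPM per kb in WT livers (SD, n = 5 each). Col18a1 was at 141.1 ± 20.2 CPM per kb in Fbp1-deleted livers and 161.6 ± 30.2 CPM per kb in WT livers, and Ecm1 at 94.6 ± 9.48 CPM per kb in Fbp1-deleted livers and 85.8 ± 6.85 CPM per kb in WT livers. Fn1 and Col18a1 did not differ beyond their spread, and in both groups their means stood above those of all other members. By the Fbp1-deleted mean Dcn came next at 20.6 ± 2.12 CPM per kb, ahead of Sparc at 15.2 ± 4.79, Bgn and Col14a1. In WT livers Sparc, at 19.3 ± 1.83 CPM per kb, stood above Dcn, at 15.4 ± 3.44 CPM per kb. Among members called higher, those that rose most in fold were low. Col5a3, Hgf and Postn were between 1.23 and 1.66 CPM per kb in Fbp1-deleted livers. Col12a1 was at 0.203 CPM per kb in Fbp1-deleted livers against 0.0867 CPM per kb in WT livers. Col1a1, Col1a2 and Col3a1 were at 0.761, 0.834 and 1.05 CPM per kb in WT livers, in the same range as Postn at 0.723.

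**Figure D5:**
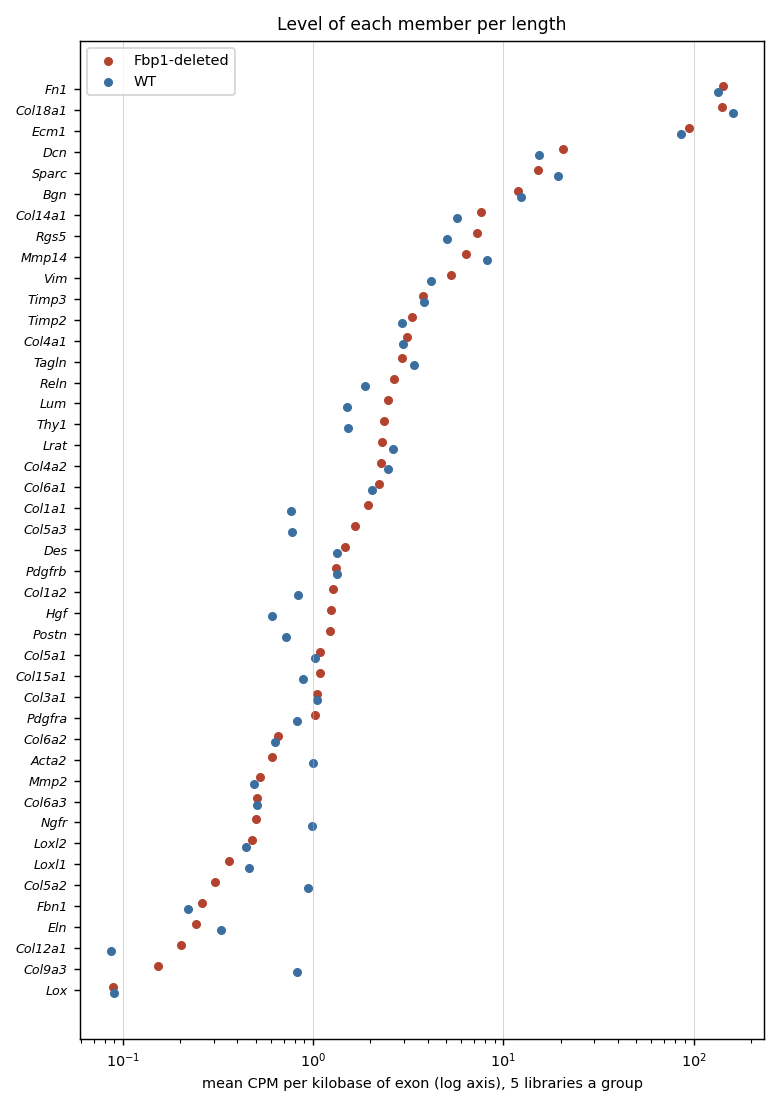
Mean level of the 44 members in counts-per-million per kilobase of exons, on a log axis and in order of the Fbp1-deleted mean, with Fbp1-deleted and WT livers shown by separate symbols (n = 5 each). Fn1, Col18a1 and Ecm1 lie far above the rest, and Col12a1, Col9a3 and Lox are at the low end.

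Few genes of the enzymes and chaperones that modify and fold procollagen passed. Of 22 genes listed, 21 were tested, and 1 was higher and 0 were lower, against 10.6% and 10% of all genes tested. The median change was 0.07 (3 at an unadjusted p under 0.05). The one called was P4ha1, a subunit of the hydroxylase that makes hydroxyproline, at 12.5 ± 0.771 CPM in Fbp1-deleted livers and 9.46 ± 1.34 CPM in WT livers (SD, n = 5 each; change 0.40, SE 0.12, adjusted p = 0.0345, edgeR), with no overlap between the groups. Of 12 other collagen genes tested, Col20a1 and Col7a1 were higher and 0 were lower, against the same shares of all genes, with a median of 0.08. Col7a1, which encodes the anchoring fibril collagen of skin, averaged 1.43 ± 0.233 CPM in Fbp1-deleted livers and 0.656 ± 0.350 CPM in WT livers (SD, n = 5 each; change 1.13, SE 0.36, adjusted p = 0.0407). Col20a1 had a change of 1.37 (SE 0.32, adjusted p = 0.0122).

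Genes of transforming growth factor beta signalling went both ways. Of 24 tested, 3 were higher (12.5%) and 1 was lower (4.17%), against 10.6% and 10% of all genes tested. The median was 0.00 beside 0.01 for all genes. The connective tissue growth factor gene Ctgf averaged 13.3 ± 5.22 CPM in Fbp1-deleted livers and 6.55 ± 1.51 CPM in WT livers (SD, n = 5 each; change 1.02, SE 0.26, adjusted p = 0.0167, edgeR). Thbs1, whose product thrombospondin can activate latent transforming growth factor beta, had a change of 1.19 (SE 0.33, adjusted p = 0.0223). Skil, which encodes the SMAD repressor SnoN, had a change of 0.72 (SE 0.17, adjusted p = 0.01). Smad2, a transducer of the pathway, was lower, at 6.85 ± 1.05 CPM in Fbp1-deleted livers and 10 ± 1.0 CPM in WT livers (SD, n = 5 each; change -0.55, SE 0.14, adjusted p = 0.0138). Of 14 tested genes of platelet-derived growth factor ligands and other activating signals, against the same shares, 3 were higher and 2 were lower. These included Ednrb, an endothelin receptor gene (change 0.67, SE 0.19, adjusted p = 0.0221), Igf1 (change -0.68, SE 0.13, adjusted p = 0.003) and Il13ra1 (change -0.47, SE 0.13, adjusted p = 0.0222). Lepr, the leptin receptor gene, stood apart at 306.5 ± 94.2 CPM in Fbp1-deleted livers and 10.5 ± 6.46 CPM in WT livers (SD, n = 5 each).

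Other regulators of the matrix gave scattered calls, to be read beside 10.6% higher and 10% lower over all genes tested. Reck encodes a membrane-anchored inhibitor of metalloproteinases, among them the products of Mmp2 and Mmp14. It was at 12.9, 13.4, 15, 15 and 12.2 CPM in Fbp1-deleted livers, against 2.31, 3.19, 3.41, 4.15 and 3.39 CPM in WT livers. The groups lay far apart, with a change of 2.06 (SE 0.16, adjusted p = 3.86e-06, edgeR), or 4.16-fold higher. In the same list of 12 genes tested, the protease gene Adamts1 was higher (change 0.73, SE 0.19, adjusted p = 0.016) and Mmp19 lower (change -0.56, SE 0.09, adjusted p = 0.000738). Among basement membrane genes Lamb3, which encodes a chain of an epithelial laminin, was higher (change 1.2, SE 0.21, adjusted p = 0.00195). Nid2, which encodes nidogen, was lower by a change of -0.70 (SE 0.21, adjusted p = 0.0333). Of 20 other glycoprotein and proteoglycan genes tested, 0 were higher and Tgm2, a crosslinking transglutaminase gene, was lower (change -0.59, SE 0.14, adjusted p = 0.0106). Of 10 integrin and collagen receptor genes, 0 were higher and Itga5, a subunit gene of the fibronectin receptor, was lower (change -0.63, SE 0.16, adjusted p = 0.0141).

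A wider list of stellate cell markers held calls in both directions. Of 23 tested, 4 were higher (17.4%) and 2 were lower (8.7%), against 10.6% and 10% of all genes tested. Their median was 0.14, and their sum ranged from 1235.5 to 1374.0 CPM in Fbp1-deleted livers and from 1271.6 to 1436.0 CPM in WT livers. Gdf2, which encodes a bone morphogenetic protein of stellate cells, averaged 23.4 ± 2.09 CPM in Fbp1-deleted livers and 16.2 ± 2.93 CPM in WT livers (SD, n = 5 each; change 0.53, SE 0.13, adjusted p = 0.0104, edgeR). Vipr1 and Tmem56 were higher by 0.44 (SE 0.12) and 0.60 (SE 0.15). The chemokine gene Cxcl12 was lower, at 222.7 ± 26.6 CPM in Fbp1-deleted livers and 328.7 ± 30.8 CPM in WT livers (SD, n = 5 each; change -0.56, SE 0.11, adjusted p = 0.00309). Beside these, the markers of hepatocytes had 0 of 12 called (edgeR, 1 at an unadjusted p under 0.05), those of cholangiocytes 0 of 5 (3 at an unadjusted p under 0.05), and those of sinusoidal endothelium 1 higher of 12, Lyve1 (change 0.83, SE 0.13, adjusted p = 0.00102). The median change of the endothelial markers was -0.26, with 6 at an unadjusted p under 0.05, a level at which the share of all genes was not counted. Kupffer cell markers had 0 higher and 3 lower of 8, against the same 10.6% and 10% of all genes tested. Their median change was -0.47, with sums of 172.5 to 244.0 CPM in Fbp1-deleted livers and 215.1 to 293.2 CPM in WT livers. The part of these cell types in the changes of the members was not tested.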

How the data were processed

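RNA of 10 livers was sequenced, 5 Fbp1-deleted and 5 WT, grouped by the sample titles and genotype labels. The authors deposited 1 table of estimated counts per gene. CASAVA, Salmon and GRCm38 are named, without versions, in the submitters' processing notes, and whether counts were adjusted for transcript length is not given in the sources used here. The series' design text also describes STAR, featureCounts and DESeq2, which the table's name does not mention. All values were whole (0 were not). Symbols came from GENCODE M21, where 37 genes with 0.0012% of counts did not match. Reads that fit several transcripts are shared out by Salmon's model, and the library keeps no strand, so counts of overlapping genes are uncertain.

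The test was run in R 4.3.3 with edgeR 4.0.16 (filterByExpr, TMM, robust quasi-likelihood F test, ~ group), and p-values were adjusted by Benjamini-Hochberg over 15392 genes. SE was taken as the absolute log2 change over root F. CPM per kb uses the union of annotated exons. The script was tested on simulated data. Totals were between 17778395 and 23894812 counts, and the biological coefficient of variation was 0.235. Alternatives (20) were other scalings, filters, thresholds and tests (DESeq2 1.42.0, limma 3.58.1), and each liver left out.

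The members and the 16 gene lists were chosen with earlier results of these data known. Values for every liver are given for members called, for those with no overlap between groups, and for Col1a1, Col1a2, Col3a1, Acta2, Des, Lrat, Pdgfrb and Hgf. Of other lists, called genes with the 4 smallest adjusted p are named, except for a result that is not reported here. Col5a2, Sparc, Ngfr, Lox and Col4a1 are shown by liver, and Met, Cd3e, Cd3d, Cd8a and Col16a1 named, outside this rule and after their values were seen.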

Additional observations from a re-analysis of the deposited data

Results flagged for a closer look

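Dixon's test at the 95% level was run for the 44 members in each group of 5 livers, and 8 values stood far from the rest of their group. Chance gives about 1 in 20 groups. In Fbp1-deleted replicate 8 they were Col1a1 at 37.2 CPM (next liver 9.31), Col1a2 at 29.7 CPM (14.7), Col3a1 at 21.1 CPM (8.64), Col6a2 at 9.21 CPM (5.10), Ngfr at 3.25 CPM (1.65) and Thy1 at 11.2 CPM (6.75). In WT livers they were Col12a1 at 2.06 CPM in replicate 5 (next liver 1.26) and Eln at 6.23 CPM in replicate 4 (2.11). Thus 6 of the 8 values fell in a single liver, and all 6 were the highest of their group. Values of a single liver share its RNA sample, so the 6 are not independent.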

How the results depend on the processing

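No paired analysis was possible because the groups share no replicate number. Counts of calls depended on the stringency. At an adjusted p threshold of 0.01, 1311 genes were called (678 higher, 633 lower) and 3 members were higher, against 4.4% of all genes. Against a fold of 1.5 (edgeR's glmTreat), 442 genes were called (228 higher, 214 lower) and 0 members were higher, against 1.48% of all genes. In the test against no change 17 members had an unadjusted p under 0.05, a level at which the share of all genes was not counted. DESeq2 called 10 members higher, against 12.8% of all genes. With upper quartile scaling 4 members were higher and 4 lower, against 8.23% and 12.2% of all genes, and with library totals 4 and 3, against 7.73% and 12.8%. These scalings moved the median of all genes to -0.06 and -0.08, and both lost Col14a1, Dcn, Lum and Thy1. Both gained Mmp14 and Ngfr as lower, and upper quartile scaling gained Col5a2 as lower. Members lower numbered 2 without the filter, 2 without robust shrinkage and 3 with DESeq2, against 4.19%, 10.1% and 11.8% of all genes. Leaving out 1 liver at a time, 2105 to 3918 genes were called (1066 to 2060 higher, 1019 to 1858 lower), 3 to 8 members were higher and 1 to 4 lower. Over these fits the shares of all genes were 6.76% to 13.1% higher and 6.47% to 11.8% lower. The fewest members higher came without WT replicate 2 or replicate 5, and the 4 lower came without Fbp1-deleted replicate 8 (Col9a3, Ngfr, Sparc and Mmp14). The fitted change of Col3a1 turned to -0.04, -0.05 and -0.04 with upper quartile scaling, library totals and limma-voom, and ran from -0.42 to 0.18 without 1 liver. That of Pdgfrb ran from -0.13 to 0.10. The cause was not tested. Over the 20 alternatives Col9a3 passed in 20, Col5a3, Col12a1 and Postn in 19 each, Lum in 12, Hgf in 11, and Col14a1, Dcn and Thy1 in 7 each, and no called member changed sign. The fitted change of 13 members that did not pass changed sign in at least 1 alternative, and their sizes with all livers were at most 0.44. Of the genes named from other lists, 20 passed in all 10 fits without 1 liver and none changed sign in the 20 alternatives. P4ha1, Thbs1, Ednrb, Il13ra1, Nid2, Vipr1, Vsig4, Cd5l, Timd4, Gas1 and Col7a1 did not, with a largest adjusted p of 0.0965 (Col7a1, without WT replicate 5). Low counts limit Lox, Loxl1, Mmp2, Acta2, Col9a3 and Col12a1.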

Other observations

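The inhibitor genes Timp1 and Timp4, outside the set, were low. Timp1, the inhibitor gene most tied to injured liver, was at 0.0551 to 0.194 CPM in Fbp1-deleted livers and at 0 to 0.109 CPM in WT livers. Timp4 was at 0 to 0.533 CPM in Fbp1-deleted livers and at 0.0492 to 0.382 CPM in WT livers. Neither was tested by the fit, since both failed the filter on low counts.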
